A study of Mus musculus with 2 samples.

Results

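The ubiquitin system genes of mouse CD8α+ dendritic cells were examined after stimulation with pIC, an artificial double-stranded RNA and agonist of the receptor TLR3. The genes were chosen by symbol alone, as rows whose symbol begins with Ube2, Usp, Otud, Rnf, Trim, Herc, Fbxo, Fbxw or Fbxl, with a digit after all but Ube2 and Otud. This gave 91 genes of the 4898 in the table. They fall into 6 classes, with 7 conjugating (Ube2) genes, 19 TRIM genes, 23 RNF genes, 3 HERC genes, 16 F-box genes and 23 deubiquitinase (Usp and Otud) genes. The cells were of the DC1940 line, of C57BL/6 strain and wild-type genotype, and carried an empty vector as the control of a transduction. There was 1 group of 2 poly(A) RNA libraries and no other group, and the labels do not give the length of the stimulation for these libraries.

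Ubiquitin is a small protein that is attached to other proteins in a relay. An activating enzyme (E1) charges it, a conjugating enzyme (E2) carries it, and a ligase (E3) chooses the target, which deubiquitinases can later release. Chains of different linkage have different uses: some send proteins to the proteasome, and others assemble signalling complexes below TLR3, the cytosolic RNA sensors and the NF-kB pathway. TRIM and RNF proteins are mostly ligases with a RING domain, HERC proteins carry a HECT domain, and F-box proteins choose the targets of cullin-RING ligases. Interferon also induces a ubiquitin-like protein, ISG15, which has an E1, an E2, a ligase and a protease of its own.

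The unit is FPKM, which relates the fragments read from a gene to its transcript length and to all mapped fragments, so that levels of different genes can be set side by side. The table has 1 value per gene over both libraries, as the authors gave it, so no value has an SD and no difference between genes could be tested against the spread between replicates. The name of the table calls its rows differentially expressed between unstimulated and stimulated cells. The direction and size of those differences were not analysed here, so every value below is a level after pIC, and being in the table does not say whether a gene rose or fell. The depth of the libraries is unknown, and in a bulk sample fewer cells expressing a gene and less RNA per cell cannot be told apart. Of 10 markers of CD8α+ dendritic cells, 9 were in the table, from Flt3 at 5.62 FPKM and Cadm1 at 9.81 FPKM to Cd8a at 292 FPKM and Xcr1 at 387 FPKM. All 5 monocyte and macrophage markers were in the table, with Cd68 at 33.2, Lyz2 at 5.40, Csf1r at 0.686, Adgre1 at 0.460 and Cd14 at 0.329 FPKM. Of 4 plasmacytoid dendritic cell markers, 3 were in it, Bst2, which interferon also induces, at 602 FPKM, Tcf4 at 5.41 FPKM and Lair1 at 2.60 FPKM. Of 6 markers of T, B and NK cells, 0 were in it, and of 4 fibroblast or epithelial markers 1, Cdh1 at 0.772 FPKM. Among all RefSeq coding genes 22.3% were in the table. As its rows are called differentially expressed, absence from it does not say that a gene was not expressed. These counts are thus not read as a check of which cells were present.

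Several TRIM genes shared an interferon-response-like motif near their annotated starts. The windows below hold every match found in the 91 genes other than that of Trim2, and each is shown because one of its strands carries GAAA, any 2 bases and GAAA again, the core to which interferon regulatory factors are known to bind. Capitals mark the matched bases, which begin and end with TTTC where the motif lies on the opposite strand. Where matches overlap, their bases run on in 1 block. Sequences are from RefSeq (GRCm38.p6), 5′ to 3′ on the gene's own strand, and stop at most 30 bases after the annotated start.
Trim30a, chr7:104465195-104465254, minus strand: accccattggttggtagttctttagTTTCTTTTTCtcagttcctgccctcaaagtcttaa
Trim30d, chr7:104507856-104507915, minus strand: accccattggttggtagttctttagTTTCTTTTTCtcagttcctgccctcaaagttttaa
Trim30a, second annotated start, chr7:104446096-104446148, minus strand: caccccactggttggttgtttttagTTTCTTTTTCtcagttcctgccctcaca
Trim12a, chr7:104315466-104315510, minus strand: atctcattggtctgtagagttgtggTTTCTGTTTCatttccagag
Trim12c, chr7:104353344-104353403, minus strand: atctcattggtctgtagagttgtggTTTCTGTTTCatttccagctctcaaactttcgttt
Trim34a, chr7:104244442-104244486, plus strand: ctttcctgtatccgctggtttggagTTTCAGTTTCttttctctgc
Trim21, chr7:102565453-102565494, minus strand: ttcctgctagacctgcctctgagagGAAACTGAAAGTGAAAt
Trim26, chr17:36836961-36837026, plus strand: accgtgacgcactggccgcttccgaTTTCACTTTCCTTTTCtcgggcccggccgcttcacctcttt

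A start window, from 250 bases before to 50 bases after an annotated start, was at hand for 76 of the 91 genes, some with several starts. In 75 of their 98 windows the 30 bases after the start stood in a GENCODE transcript of the gene, and in the other 23 they did not, so match positions rest on the RefSeq starts. The motif, searched on both strands, was present in 8 of the 76 (10.5%), against 1079 (3.99%) of 27025 genes with such a window and 4.66% of the genes in the table with one. All 8 were TRIM genes, out of 15 TRIM genes with a window (53.3%), and 0 of the 61 genes of the other classes with a window held it. Among TRIM genes outside the table, 1 of 38 with a window held the motif, Trim5. The windows of close relatives are copies of one another, so they are not independent counts. Over 60 bases, the main Trim30a window differed from that of Trim30d at 1 base, and over 45 bases the windows of Trim12a and Trim12c differed at 2. The same motif with C after it was present in 6 of the 76 genes (7.89%), against 0.944% of all genes with a window. An NF-kB-like motif (GGGA, any base, TTTCC) was present in 0 of 76, against 0.466%. That motif is so rare over all genes that 0 of 76 is not read as a lack of it. No window was at hand for 15 genes, among them Usp18, Trim35 and Trim14. A match is a description of letters, not a binding site that was measured.

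**Figure D1:**
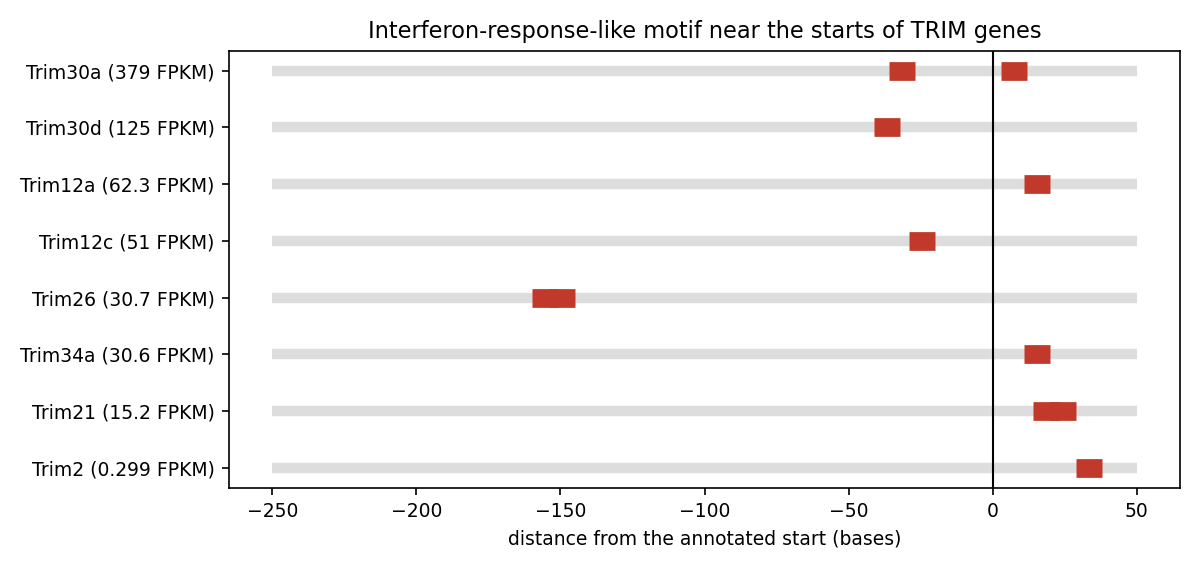
Position of the interferon-response-like matches (red) within the window from 250 bases before to 50 bases after the annotated start (grey), in bases from the start (vertical line), for the 8 TRIM genes of the table that hold one. Genes are ordered by FPKM from 379 (Trim30a, top) to 0.299 (Trim2, bottom); both annotated starts of Trim30a are drawn on 1 line.

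The matches lay close to the start in most of these genes. Counted from the start, with bases before it negative, the match covered bases -36 to -27 in Trim30a, -41 to -32 in Trim30d and -29 to -20 in Trim12c. In Trim12a and Trim34a it covered bases 11 to 20, and in Trim21 a pair of overlapping matches covered bases 14 to 29. Trim26 had its overlapping matches farther upstream, at bases -160 to -145. Of the 5 TRIM genes at 50 FPKM or more with a window, 4 held the motif, and so did 4 of the 10 below that level. Trim2, at 0.299 FPKM the lowest TRIM gene, also held one, so the motif was not limited to high levels. The Trim2 match, at bases 29 to 38, belongs to an annotated start in the interior of the gene's interval. The annotated start of Trim12a and the second one of Trim30a also lie in the interior. Their matches cover 104315476 to 104315485 and 104446114 to 104446123, in minus-strand intervals that end at 104324838 and 104465193.

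The 91 genes had a median of 17.2 FPKM, with quartiles of 5.82 and 47.2, against a median of 9.68 FPKM and quartiles of 2.32 and 33.4 over all rows. Of the 91, 60 (65.9%) stood above the median of the table. At 50 FPKM or more there were 23 genes (25.3%), against 18.2% of all rows. At 100 FPKM or more there were 7 (7.69%), against 9.60% of all rows, and at 200 FPKM or more there were 2, against 4.65% of all rows. Under 1 FPKM there were 8 (8.79%), against 14.1%. The shares at both ends of the range rest on 7, 2 and 8 genes. Their differences from all rows were not tested and are not read as a trait of these genes. The 7 highest were Usp18, Trim30a, Ube2l6, Usp25, Trim30d, Rnf19b and Ube2c, which come from 4 of the 6 classes. All 91 genes together took 1.35% of the FPKM summed over the table.

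**Figure D2:**
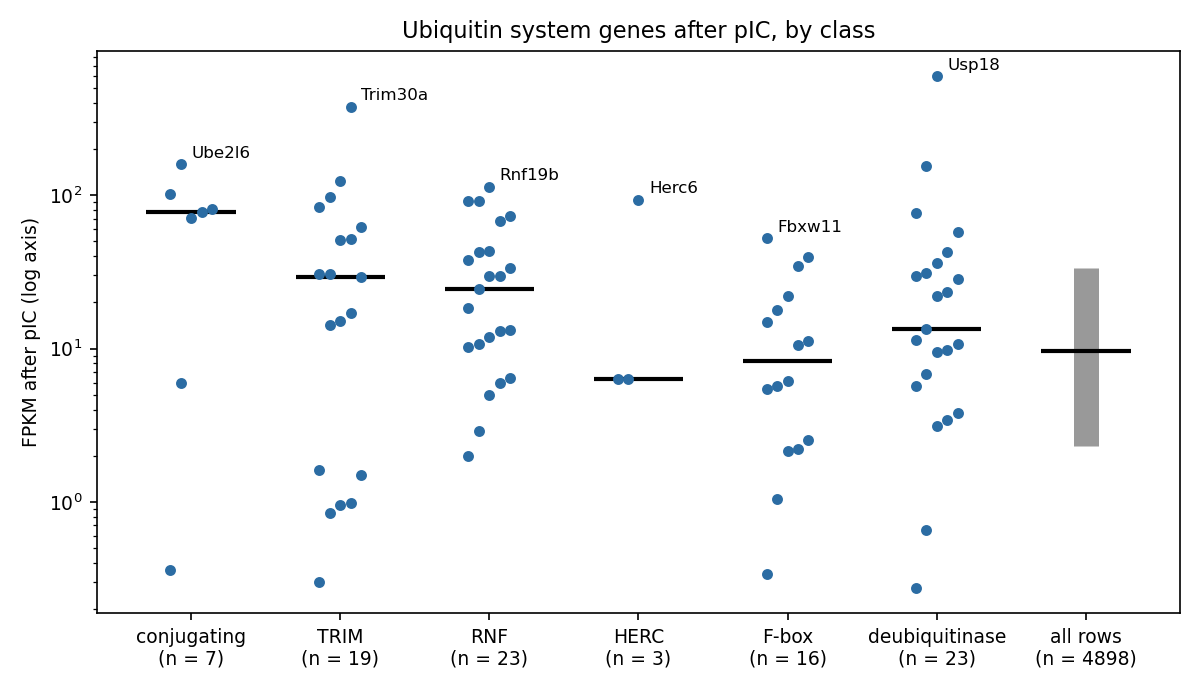
FPKM after pIC (log axis) of each of the 91 genes, by class, with the median of each class as a black line; the grey bar spans the quartiles of all 4898 rows, with their median as a line. Usp18 at 599 FPKM and Trim30a at 379 FPKM stand above all other points, and the medians run from 77.6 (conjugating, 7 genes) to 6.38 (HERC, 3 genes), both of which move with the setting.

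The order of the class medians depended on the setting. The HERC median of 6.38 FPKM rests on 3 genes and became 50.2 FPKM without Herc3, whose interval overlaps Nap1l5; the F-box median was then the lowest. The conjugating median of 77.6 FPKM became 38.5 FPKM without the 3 genes that share over 10% of their 50-base words with transcripts of other genes, and the back-transformed mean of log2(FPKM + 1) was 34.7 FPKM.

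Conjugating enzymes had a median of 77.6 FPKM, and 5 of the 7 stood above the upper quartile of the table. Ube2l6, the E2 that carries ISG15, had 161 FPKM (mm10, chromosome 2, 84798828 to 84810003), the rank 300 of 4898. Ube2c, the E2 of the anaphase-promoting complex that drives exit from mitosis, had 101 FPKM (chromosome 2, 164769929 to 164772902). Ube2f, which carries the ubiquitin-like protein NEDD8, had 82.0 FPKM, and Ube2n, which builds lysine-63 chains in NF-kB signalling, 77.6 FPKM. Ube2z, an E2 charged by the activating enzyme UBA6, had 71.1 FPKM. These 5 lay within a range from 71.1 to 161 FPKM. Of the 50-base words of Ube2c, 17.8% also stood in transcripts of other genes, mostly Tnnc2, and of those of Ube2l6 and Ube2n 11.3% and 10.7%, so these values are less certain. Then came a gap: Ube2t, the E2 of the Fanconi anaemia pathway of DNA repair, had 5.94 FPKM, and Ube2cbp 0.361 FPKM. Ube2cbp bears the family's letters but encodes a protein that binds an E2 and acts as a ligase. Most of the family was not in the table, which held 7 of 37 RefSeq coding genes named Ube2 (18.9%), against 22.3% of all RefSeq coding genes. Ube2d1, Ube2d3 and Ube2l3, E2s that serve many ligases, were among those not in it, and so were the Ube2n partners Ube2v1 and Ube2v2.

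Among the TRIM genes, Trim30a and Trim30d led. Trim30a, which in mice is known to restrain TLR signalling to NF-kB, had 379 FPKM (chromosome 7, 104409026 to 104465193), and its neighbour Trim30d 125 FPKM (chromosome 7, 104470014 to 104507849). Trim25, the ligase that ubiquitinates the RNA sensor RIG-I, had 97.4 FPKM (chromosome 11, 88999403 to 89020293), and Trim35 83.5 FPKM. Trim12a and Trim12c, mouse relatives of the retroviral restriction factor TRIM5 of primates, had 62.3 and 51.0 FPKM. Between them stood Trim14, a TRIM protein without a RING domain that joins the mitochondrial adaptor of RNA sensing, at 52.0 FPKM. The class median was 29.3 FPKM, with quartiles of 1.56 and 57.2, the widest spread of levels among the classes of 10 or more genes.

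In the middle of the class, Trim26 had 30.7 FPKM, Trim34a 30.6 FPKM and Trim8, which binds the cytokine signalling inhibitor SOCS1, 29.3 FPKM. Trim56, known to act in the DNA-sensing STING pathway, had 17.2 FPKM, and Trim21, a receptor in the cytosol for antibody-coated virus, 15.2 FPKM. Trim59 followed at 14.2 FPKM. Below a gap, 6 genes had 1.61 FPKM or less: Trim30b at 1.61, Trim62 at 1.50, Trim32 at 0.981, Trim65, a ligase of the RNA sensor MDA5, at 0.945, Trim34b at 0.843 and Trim2 at 0.299. The intervals of Trim32, Trim65 and Trim2 overlapped other coding genes, Astn2, Trim47 and Gm6525, and reads shared with these were not measured. The TRIM class thus fell into 13 genes from 14.2 to 379 FPKM and 6 from 0.299 to 1.61 FPKM, with none between.

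The TRIM cluster of chromosome 7 held both of the highest TRIM genes and some of the lowest. RefSeq places 10 TRIM genes there within 289 kb, and 7 of them were in the table, against 27.9% of TRIM genes and 22.3% of all coding genes. The cluster was chosen with earlier results known, so this count is not read as a result. In chromosomal order, Trim34a had 30.6 FPKM, Trim12a 62.3 FPKM, Trim34b 0.843 FPKM, Trim12c 51.0 FPKM, Trim30b 1.61 FPKM, Trim30a 379 FPKM and Trim30d 125 FPKM, while Trim6, Trim5 and Trim30c were not in it. Neighbours thus differed widely: Trim34a was 36.3 times as high as Trim34b, and Trim30a 236 times as high as Trim30b and 3.04 times as high as Trim30d. Trim12a and Trim12c were 1.22 times apart. The motif shown above was present in the windows of Trim34a, Trim12a, Trim12c, Trim30a and Trim30d and not in those of Trim34b and Trim30b. It was also present in that of Trim5, which was not in the table. The windows of Trim30a and Trim30d, and those of Trim12a and Trim12c, are near copies and not independent counts. A link between motif and level was not tested.

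**Figure D3:**
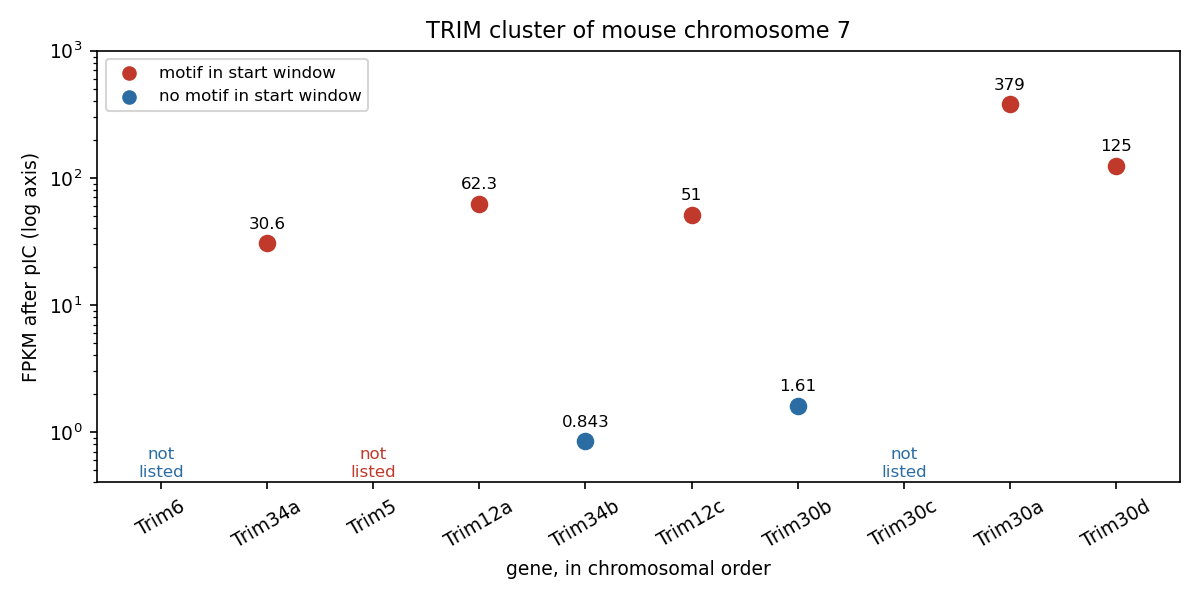
FPKM after pIC (log axis) of the 10 TRIM genes of the chromosome 7 cluster in chromosomal order; red marks an interferon-response-like match in the start window, blue none, and genes outside the table are written as not listed. Trim30a (379) and Trim30d (125) are highest, and Trim34b (0.843) and Trim30b (1.61) are lowest. A link between match and level was not tested.

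The copies in this cluster resemble one another, which limits how firmly single values can be read. In GENCODE transcripts, 59.0% of the 50-base words of Trim34b also stood in transcripts of Trim34a, and 61.9% of those of Trim34a stood in transcripts of some other gene. For Trim12c and Trim12a the shares with other genes were 33.4% and 23.5%, mostly with Trim5, and for Trim30d 8.29%. How the authors' counting divided reads between such copies is not stated, so the values of Trim34a, Trim34b, Trim12a and Trim12c are uncertain.

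RNF genes ranged from 2.00 to 114 FPKM, with a median of 24.5 FPKM. Of the 23, 0 were under 1 FPKM, against 14.1% of all rows, a difference that was not tested. Rnf19b, a ligase known from the killing machinery of NK cells and macrophages, had 114 FPKM (chromosome 4, 129058271 to 129084526). Rnf114 had 92.2 FPKM and Rnf4, which ubiquitinates proteins that carry SUMO chains, 91.6 FPKM. Rnf8, a ligase at DNA breaks, stood at 73.3 FPKM, but its row also carried accessions of Cmtr1 and Gm28043, and the value belongs to these 3 genes together. Rnf115 had 67.6 FPKM. Rnf31, the catalytic subunit of the complex that builds linear ubiquitin chains for NF-kB, had 43.3 FPKM, in an interval that overlaps Irf9. Rnf34, with 13.2% of its 50-base words also in transcripts of other genes, had 43.0 FPKM. Rnf187 had 37.8 FPKM and Rnf181 33.4 FPKM.

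Among RNF ligases of RNA and DNA sensing, Rnf135, a cofactor ligase of RIG-I, had 29.6 FPKM. Rnf5 and Rnf26, ligases in the ER membrane that act on the DNA-sensing adaptor STING, had 18.5 and 10.2 FPKM. Of the 50-base words of Rnf26, 96.1% also stood in transcripts of other genes, 75.3% in Gm49380, and 37.6% of those of Rnf5, so both values are uncertain. Rnf40, a subunit of the ligase for histone H2B, had 24.5 FPKM, and Rnf111, a ligase of TGF-beta signalling, 13.2 FPKM. Rnf139, an ER membrane ligase, had 13.0 FPKM. The lowest were Rnf13 at 4.96 FPKM, Rnf170 at 2.89 FPKM and Rnf180 at 2.00 FPKM. Of the 50-base words of Rnf139, Rnf170 and Rnf40, 29.3%, 21.1% and 11.8% also stood in transcripts of other genes. Their values are thus less certain as well. The table held 23 of 83 RefSeq coding RNF genes (27.7%, against 22.3% of all coding genes).

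The HERC class was 1 high gene and 2 low ones. Herc6, in mice the main ligase for ISG15, had 93.9 FPKM (chromosome 6, 57580992 to 57665136). Herc2, a very large ligase of the DNA damage response, and Herc3 had 6.38 and 6.37 FPKM. Herc6 was thus 14.7 times as high as Herc2. Of the 50-base words of Herc6, 23.8% also stood in transcripts of Gm45193. The table held 3 of 5 RefSeq coding HERC genes (60.0%, against 22.3% of all coding genes).

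F-box genes had low to middle levels, with a median of 8.33 FPKM, and only Fbxw11 passed 50 FPKM. Fbxw11, which recognises phosphorylated IkB and so releases NF-kB, had 52.4 FPKM (chromosome 11, 32642555 to 32746814). Fbxw17 had 39.6 FPKM, and Fbxo11, known for the degradation of BCL6, 34.5 FPKM in an interval that overlaps Msh6. Fbxo5, an inhibitor of the anaphase-promoting complex, had 22.2 FPKM, and Fbxo42 17.8 FPKM. The 3 Fbxw genes had a median of 39.6 FPKM, the 6 Fbxl genes one of 5.95 FPKM and the 7 Fbxo genes one of 5.45 FPKM. The lowest was Fbxo10 at 0.340 FPKM. The table held 16 of 78 RefSeq coding F-box genes (20.5%, against 22.3% of all coding genes), and Btrc, the close relative of Fbxw11, was not in it.

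Deubiquitinases held the highest value of all 91 genes. Usp18 had 599 FPKM (chromosome 6, 121245906 to 121270917), the rank 50 of 4898. It encodes the protease that removes ISG15 from proteins and also blocks signalling at the type I interferon receptor. Usp25, known to deubiquitinate the adaptor TRAF3 in antiviral signalling, followed at 156 FPKM (chromosome 16, 77014069 to 77116780), so that Usp18 was 3.85 times as high. Otud5, which also acts on TRAF3, had 77.3 FPKM (chromosome X, 7841831 to 7876626), and Usp12 57.6 FPKM. Usp19, a deubiquitinase of the ER membrane, had 42.7 FPKM. The other 18 ranged down to 0.275 FPKM, and the class median was 13.4 FPKM.

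Among the other deubiquitinases, Usp22, a subunit of the SAGA coactivator that acts on histones, had 36.2 FPKM. Usp47 had 31.1 FPKM, the X-linked Usp9x 29.7 FPKM, and Usp15, which stabilises TRIM25, 28.3 FPKM. Of the remaining OTU-domain genes, Otud1 had 23.6 FPKM, Otud4 22.2 FPKM and Otud7b, which limits the noncanonical NF-kB pathway, 11.4 FPKM, so all 4 Otud genes stood above the median of the table. Usp30, which acts on mitochondria, had 3.41 FPKM, Usp27x 0.650 FPKM and Usp2 0.275 FPKM, the lowest of the 91 genes. Usp6nl, at 9.54 FPKM, meets the symbol rule but encodes an activator of Rab GTPases and not a deubiquitinase. The table held 23 of 64 RefSeq coding genes of the class (35.9%, against 22.3% of all coding genes), with 19 of 56 Usp and 4 of 8 Otud genes.

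**Figure D4:**
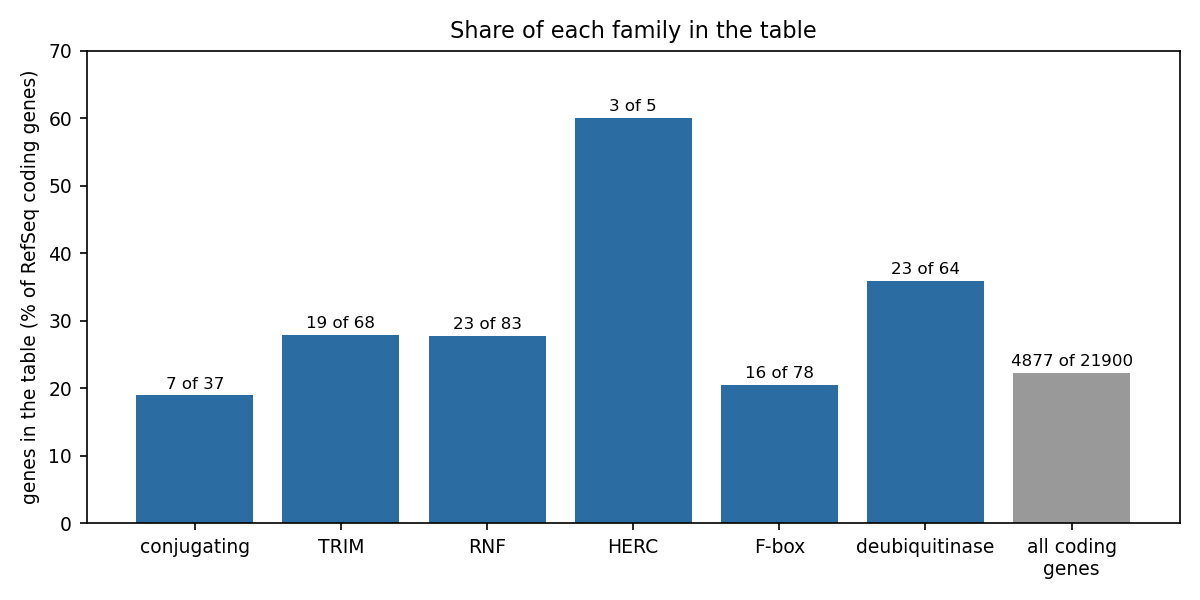
Percent of RefSeq protein-coding genes of each family that were in the table, with the counts above the bars, and the same for all coding genes (grey, 4877 of 21900). Shares run from 18.9% (conjugating) to 60.0% (HERC, 3 of 5), against 22.3% of all coding genes.

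Over all classes, 91 of 335 RefSeq coding genes that meet the symbol rule were in the table (27.2%), against 22.3% of all coding genes. The share was 27.9% for TRIM genes, 19 of 68. Genes that were too weakly expressed to be tested count as not in the table, and the genes that the authors tested are unknown, so these shares are given as a description.

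By role, all 5 genes on the list of ISG15 conjugation were in the table, against 22.3% of all coding genes. ISG15 itself had 2186 FPKM. Its activating enzyme gene Uba7 had 47.3 FPKM, its E2 gene Ube2l6 161 FPKM, its ligase gene Herc6 93.9 FPKM and its protease gene Usp18 599 FPKM. The modifier and the protease were thus the highest of the set, and the E1 the lowest. Genes of RNA sensing and interferon signalling had 13 of 18 members in the table (72.2%, against 22.3% of all coding genes), with a median of 28.3 FPKM and a range from 0.945 (Trim65) to 156 (Usp25). Trim27, Trim38, Rnf125, Usp3 and Usp21 were not in it. The role lists were chosen with earlier results of these data known, so these shares are given as a description.

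Genes of NF-kB signalling and of linear or lysine-63 chains had 6 of 14 members in the table (42.9%, against 22.3% of all coding genes), from 11.4 to 77.6 FPKM. Beside Ube2n and Rnf31, they included the linear chain ligase subunit Sharpin at 21.7 FPKM and Otulin, the deubiquitinase of linear chains, at 43.3 FPKM. The third ligase subunit, Rbck1, was not in the table. Cell cycle genes had 3 of 8 members in it, Ube2c, Fbxo5 and Ube2t, and the ER-associated degradation group 3 of 10, Usp19, Rnf5 and Rnf139. SUMO and NEDD8 conjugation had 1 of 3, Ube2f, and the DNA damage group 1 of 8, the row of Rnf8. Among all coding genes 22.3% were in the table. As the lists were chosen with earlier results known, the count of no role group is read as a result.

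**Figure D5:**
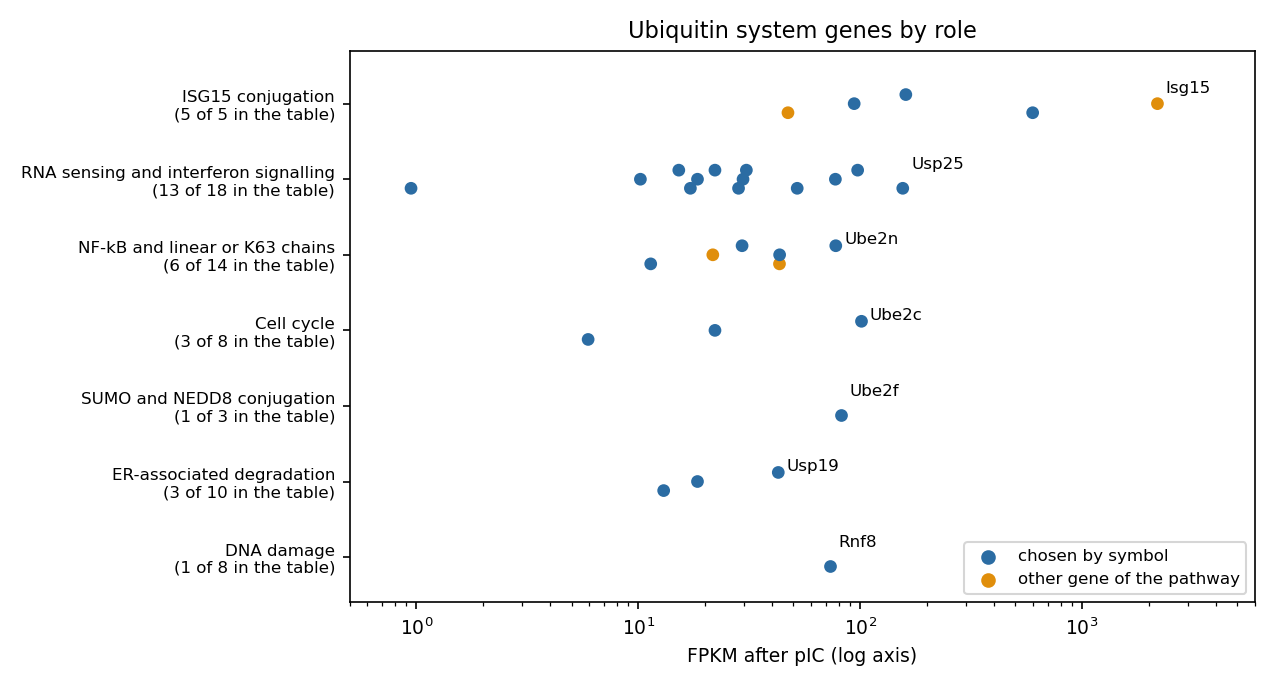
FPKM after pIC (log axis) of the genes in the table, by role group; each point is 1 gene, blue where it is 1 of the 91 genes and orange where it is another gene of the pathway, and the gene with the highest value is named; small vertical offsets only keep points apart. ISG15 conjugation spans 47.3 to 2186 FPKM with 5 of 5 genes in the table, and DNA damage has 1 of 8, against 22.3% of all coding genes. The lists were chosen with earlier results of these data known.

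Outside the symbol rule, ligases and adaptors of signalling complexes had 15 of 24 genes in the table (62.5%, against 22.3% of all coding genes), with a median of 39.0 FPKM. Peli1, a ligase of TLR signalling, had 366 FPKM, Traf1, a TRAF protein that lacks the RING, 276 FPKM, and Birc3, a ligase of TNF receptor complexes, 184 FPKM. Among modifiers, 4 of 13 were in the table, led by Isg15. Among activating enzymes, 4 of 9 were in it, with Uba7 at 47.3 FPKM, Uba6 at 45.2 FPKM and the SUMO activator Uba2 at 41.3 FPKM. Cullin-RING genes had 5 of 17, led by Keap1, the adaptor that degrades NRF2, at 65.0 FPKM, Cul3 at 40.9 FPKM and Cand1 at 37.9 FPKM. HECT and other ligases had 5 of 21, led by Ubr4 at 48.8 FPKM, Sharpin at 21.7 FPKM and Huwe1 at 19.6 FPKM. Other deubiquitinases had 7 of 20, led by Tnfaip3, the NF-kB inhibitor A20, at 52.5 FPKM, Otulin at 43.3 FPKM and Vcpip1 at 27.5 FPKM. The shares of these last 5 lists in the table ran from 23.8% (HECT and other ligases) to 44.4% (activating enzymes), against 22.3% of all coding genes, on lists of 9 to 21 genes. All lists of this paragraph were chosen with earlier results known, so their shares are a description and are not read as results.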

How the data were processed

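Poly(A) RNA of 2 libraries was sequenced, per the labels' protocols. Cufflinks 2.2.1, TopHat2 2.1.0 and FastQC 0.11.5 were used with the build mm10, per the submitters' processing notes. The deposited FPKM values, 1 per gene, are the authors' own, per the file headers. Nothing states how they combined the libraries.

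The genes, lists, thresholds and motif were chosen with earlier results of these data known. The genes named are the 5 highest and the 1 lowest of each class, all role group genes in the table and the 3 highest of each other list. Others were named after their values were seen; a few that this choice covers are not reported.

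Accessions and families were matched to RefSeq (GRCm38.p6), and overlapping coding genes to GENCODE M21; 1 was added to row starts, which count from 0. Of 91 genes, 90 had accessions of 1 gene and 21 had intervals overlapping another coding gene. The overlap is not stated above for each gene, and those named without it include Usp2, Fbxo10, Rnf114, Rnf115 and Rnf181. Words of 50 bases of the longest coding transcript were searched on both strands in transcripts of other genes, so overlap on the opposite strand counts as sharing. By this count 17 genes shared over 10%. Start windows of 76 genes were matched by RefSeq gene ID. The motif search was tested on simulated data. No test was run, since 1 pooled value per gene allows none, and depth is unknown. Python 3.11.15, pandas 2.3.3, numpy 2.4.6 and matplotlib 3.10.9 were used.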

Additional observations from a re-analysis of the deposited data

How the results depend on the processing

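No paired analysis was possible because the only group has pooled values, and leaving out a library was not run for the same reason. Of 70 alternative values, 49 lay within 1.5 times the reported one and 21 did not; the cause was not tested except where stated. By construction, the 7 genes at 100 FPKM or more became 23 at 50 and 2 at 200 FPKM. A floor of 5 FPKM raised the medians, as it removes low rows, to 29.7 (all 91 genes), 51.0 (TRIM), 14.8 (F-box) and 25.9 FPKM (deubiquitinases, 22.2 with a floor of 1 FPKM). Without rows overlapping other coding genes, the deubiquitinase median was 22.9 FPKM and the HERC median, over 2 genes, 50.2 FPKM. Back-transformed means of log2(FPKM + 1) and log2(FPKM + 0.1) were 34.7 and 29.6 for conjugating, 16.8 and 14.1 for TRIM and 16.3 and 15.7 FPKM for HERC genes. Without genes that share over 10% of their 50-base words, a setting chosen after seeing the data, the conjugating median was 38.5 and the TRIM median 17.2 FPKM. In the 150 bases before the start alone, fewer bases were searched. Of the genes with a window, the motif was then present in 3.95% of the 91, 20.0% of their TRIM genes and 1.85% of all genes. Adding C to the motif lowered the share over all genes to 0.944%. The limits set by depth could not be given, as the files hold no counts.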
